A study of Mus musculus with 11 samples.

Results

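The 8 genes described here encode proteins that join hepatocytes to each other: the connexins Gjb1, Gjb2 and Gja1, the claudins Cldn1, Cldn2 and Cldn3, and the cadherins Cdh1 and Cdh2. They were taken by symbol from the 43346 rows of the deposited gene table, and each symbol matched 1 row. They were chosen by name with their levels in responder and non-responder livers already known. All libraries came from livers of FVB/NJ mice in which hepatocellular carcinoma had been induced by expressing MET, the receptor for hepatocyte growth factor, together with β-catenin, a Wnt effector that also binds cadherins. Of 11 libraries, 6 carried the response label responder and 4 the label non-responder to anti-PD-1, an antibody against an inhibitory receptor of T cells. The last library is labelled as having had no treatment, although its treatment label names the antibody, and it is called untreated here after its response label. The labels give no age, and they do not say whether the RNA of a liver came from tumour, from surrounding tissue or from both. Nor do they say that libraries came from separate mice, so the spread behind each p-value is one between libraries and may be technical. Gene counts summed to between 17876515 and 49884800 per library. Alb and Hnf4a, which mark hepatocytes, stood at 48588 CPM (gene counts scaled to library depth) or more and at 600.6 or more in every library. The summed level of 7 hepatocyte markers was 74740 to 88630 CPM in responders and 101100 to 119800 in non-responders, mostly from Alb, and its part in the differences between the groups was not tested.

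Gap junctions are channels built from connexins that let ions and small molecules pass from cell to cell. The hepatocyte's main connexins are Cx32, encoded by Gjb1, and Cx26, encoded by Gjb2, while Cx43, encoded by Gja1, is typical of other liver cells. Tight junctions seal the bile canaliculus, and their claudins set what passes between cells: Cldn1 and Cldn3 encode sealing claudins and Cldn2 one that forms a pore for cations and water. Adherens junctions hold hepatocytes together through E-cadherin (Cdh1) and N-cadherin (Cdh2), whose tails bind β-catenin. In normal mouse liver E-cadherin is found mainly near the portal vein and claudin-2 mainly near the central vein.

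Gjb1 can start at several first exons that are joined to the same coding exon, and the exon counts showed which of them carried reads. For that reason the windows before 2 of its starts are printed, beside the window before Gjb2, the connexin that differed most between the groups. Each window is the 250 bases before a RefSeq start on GRCm38.p6, read on the strand of the gene, and 6 of the 8 members matched the table (all but Cdh1 and Cdh2). Capitals mark matches on either strand to the motifs searched, none of which overlapped another in these windows.
Gjb1, upstream of the 87-base first exon (chrX:101376985-101377234, plus strand): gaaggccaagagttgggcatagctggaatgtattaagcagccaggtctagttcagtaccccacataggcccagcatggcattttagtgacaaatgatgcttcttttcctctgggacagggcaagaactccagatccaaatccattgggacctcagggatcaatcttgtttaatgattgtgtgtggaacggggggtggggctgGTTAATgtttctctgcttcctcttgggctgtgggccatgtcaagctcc
Gjb1, upstream of the 107-base first exon (chrX:101383482-101383731, plus strand): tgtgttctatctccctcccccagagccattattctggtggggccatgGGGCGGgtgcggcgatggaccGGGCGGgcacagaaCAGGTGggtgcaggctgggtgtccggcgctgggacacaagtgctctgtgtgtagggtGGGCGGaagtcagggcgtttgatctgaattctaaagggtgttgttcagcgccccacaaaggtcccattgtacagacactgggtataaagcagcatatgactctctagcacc
Gjb2 (chr14:57104703-57104952, minus strand): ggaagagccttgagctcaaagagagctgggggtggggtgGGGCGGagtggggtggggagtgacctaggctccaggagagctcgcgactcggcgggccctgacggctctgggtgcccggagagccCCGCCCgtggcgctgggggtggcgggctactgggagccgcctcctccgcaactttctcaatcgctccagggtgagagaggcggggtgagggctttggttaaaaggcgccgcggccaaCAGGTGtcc
The motifs were GGGCGG, bound by SP1 and related factors and present in 32.7% of 32841 windows of this length, CAGGTG, the E-box bound by Snail and ZEB repressors (17.2%), and GTTAAT, a core of the HNF1 site (6.43%). The TCF/LEF site, searched as CTTTGAA and as the forms that end in AT, TA or TT instead, was in 14.8% of windows, and CAAAGTCCA, a site of HNF4, was in 0.384%. The first Gjb1 window held GTTAAT, 48 to 43 bases before the RefSeq start, and 1 CpG. This window ends at 101377234 and the 87-base exon of the exon counts starts at 101377273, so the motif lies further from that exon. The second Gjb1 window held 3 GC boxes and an E-box, with 10 CpG. The Gjb2 window held 2 GC boxes and an E-box that ended 4 bases before the start, with 18 CpG. The median window held 6 CpG.

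Of the Gjb1 counts on first exons, most lay on the 87-base exon in every library, the start known to serve liver. The exon table gave 8850 counts over 11 libraries for this exon (mm10 chromosome X, 101377273 to 101377359). The 107-base exon near the coding exon (101383736 to 101383842), a start known from myelinating Schwann cells, had 852, and the 35-base exon (101376378 to 101376412) had 34. The 87-base exon took 89.31% to 91.94% of first-exon counts in responders. In non-responder replicates 2, 3 and 4 it took 90.30%, 93.34% and 92.86%, and in the untreated library 91.82%. Replicate 1 of the non-responders stood apart at 67.51% (95% exact Clopper-Pearson interval 61.15 to 73.43, counting error only, 237 counts), with 32.07% on the 107-base exon. Reads of that library lay toward the 3′ ends of Cldn1, Cdh1 and Cdh2. Whether its Gjb1 first-exon share is linked to this was not tested. In Cdh1 the log2 ratio of counts per base in the later 8 of 16 exons over the earlier 8 was 2.10 there, against -0.10 to 0.31 in the other 10 libraries. For Cdh2 the same index was 2.31 against 0.07 to 0.48. The share of Gjb2 counts on its first exon was 2.79% in that library against 7.34% to 9.50% in the others.

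**Figure D1:**
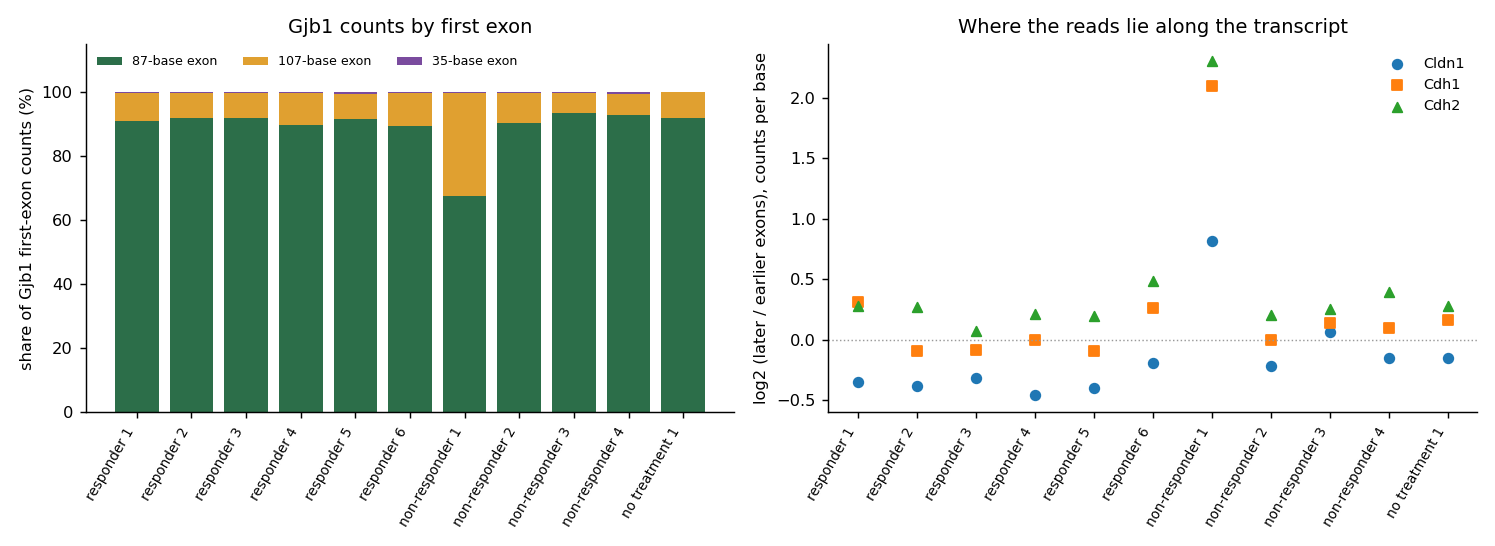
Left, bars give the share of Gjb1 first-exon counts (percent) on each of 3 first exons in each library. Right, points give the log2 ratio of counts per base in the later over the earlier exons of Cldn1, Cdh1 and Cdh2; non-responder replicate 1 stands highest for the 3 genes, at 0.82, 2.10 and 2.31.

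The hepatocyte connexins were higher in responder livers, and Gjb2 differed more than Gjb1. Gjb2 (ENSMUSG00000046352, mm10 chromosome 14, 57098600 to 57104702) ran from 273.3 to 374.8 CPM in responders, with a median of 315.0. The 4 non-responders had 122.7, 117.9, 138.9 and 177.3 CPM, so every responder lay above every non-responder. The means were 317.8 ± 34.1 (SD, n = 6) and 139.2 ± 27.0 CPM (SD, n = 4), a log2 difference of 1.18 ± 0.15 (SE) in edgeR's quasi-likelihood fit. Gjb1 (ENSMUSG00000047797, chromosome X, 101376378 to 101385629) ran from 533.5 to 687.1 CPM in responders, with a median of 573.8. Its non-responder values were 363.3, 357.9, 452.9 and 503.9 CPM, again without overlap of the groups. The means were 590.2 ± 56.3 (SD, n = 6) and 419.5 ± 71.2 CPM (SD, n = 4), a log2 difference of 0.49 ± 0.14 (SE). The untreated library had 319.7 CPM of Gjb2 and 596.3 of Gjb1, within the range of the responders for both genes. Gja1 (ENSMUSG00000050953, chromosome 10, 56377300 to 56390419) was scarce, with 61 to 281 counts per library. It ran from 2.62 to 6.69 CPM in responders and from 2.73 to 6.08 in non-responders, with 4.50 in the untreated library, and the groups overlapped. Summed markers of cells that carry connexin 43 also overlapped. The 8 stellate and fibroblast markers summed to 241.5 to 429.5 and 342.5 to 488.0 CPM, and 6 macrophage markers to 111.2 to 352.9 and 51.4 to 228.3. The stellate and fibroblast sum hides opposite directions. At an unadjusted edgeR p under 0.05, Col1a1, Col1a2 and Col3a1 were lower in responders and Lrat and Dcn higher. After adjustment edgeR called 0 of these 8, DESeq2 1 and limma-voom 0, and each called 0 macrophage markers. In bulk RNA fewer cells of a type and less RNA per cell cannot be told apart.

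The members were named with earlier results of this contrast known, so their differences are given as a description and without a p-value. Gjb2 and Cdh1 were called by edgeR at an adjusted p under 0.05, which makes 2 of 8, all of which passed the filter on low counts; 9.93% of the 17610 genes tested were called. The groups did not overlap in 3 of 8, against 11.3% of all tested genes. Gjb1 and Gjb2 lay apart upward in responders (5.7% of tested genes did) and Cdh1 downward (5.62%). Nothing is read from these counts, since the choice of members used the contrast. Over the 10 fits that left out 1 library the log2 difference was 1.12 to 1.32 for Gjb2 and 0.43 to 0.59 for Gjb1. Of these 10 fits edgeR called Gjb2 in 10, Cdh1 in 4 and Gjb1 in 1. Without non-responder replicate 1, the library that stood apart in its coverage, the log2 differences were 1.13 for Gjb2, 0.43 for Gjb1 and -1.44 for Cdh1. Sample titles carry a number, 1 to 29 in responders and 26 to 37 in non-responders, which the labels do not explain. When this number entered the model the difference was 1.37 for Gjb2 and 0.42 for Gjb1. In that fit edgeR called 0 genes higher in responders, so Gjb2 was not called.

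**Figure D2:**
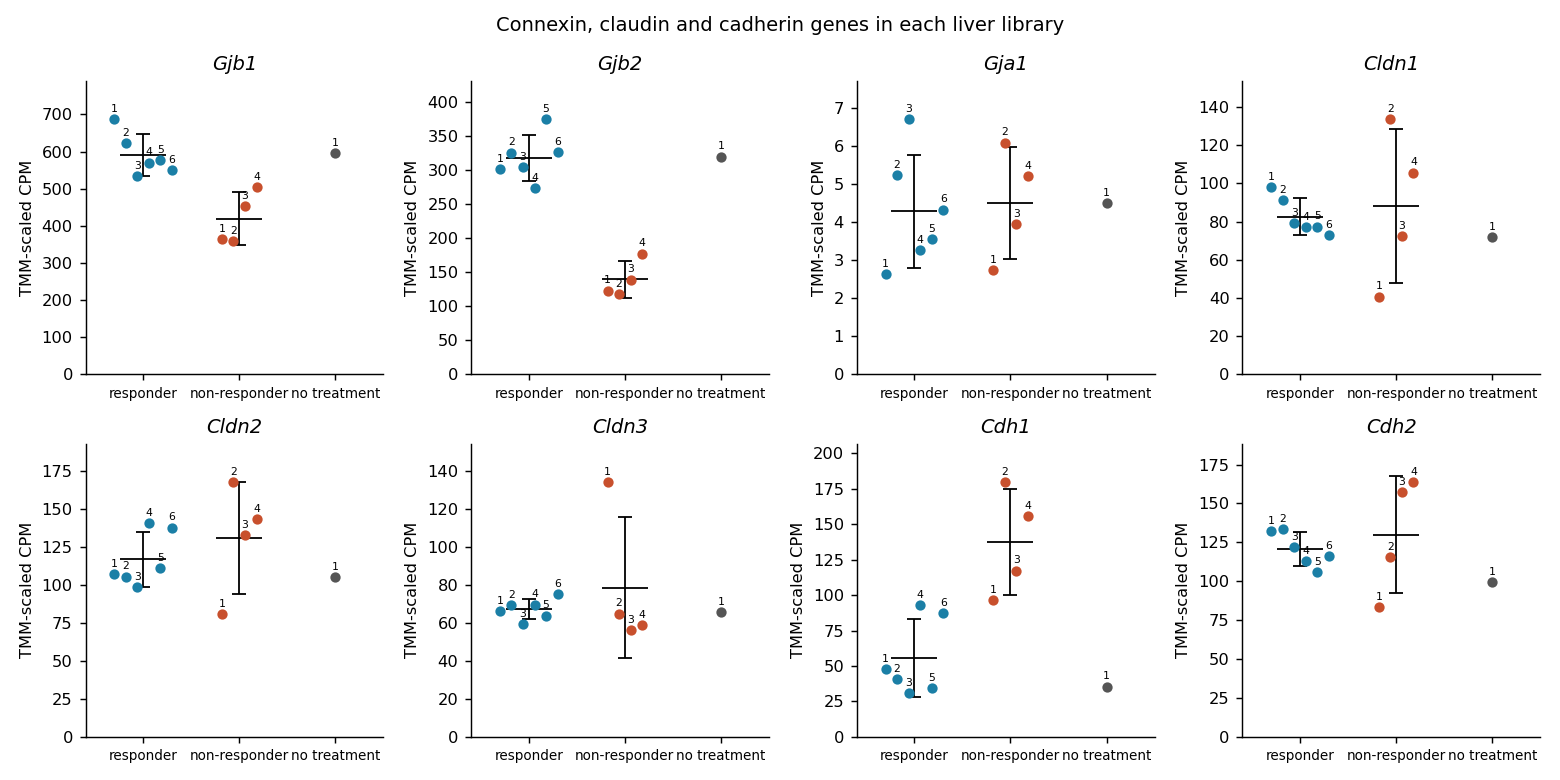
TMM-scaled CPM of each member in each library; points are libraries numbered by replicate, horizontal marks and bars are the mean and SD of a group, and axes start at 0. Responders and non-responders separate for Gjb1, Gjb2 and Cdh1 and overlap for the other 5 genes.

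Of the cadherins, Cdh1 was lower in responders while Cdh2 overlapped between the groups. Cdh1 (ENSMUSG00000000303, chromosome 8, 106603351 to 106670246) stood at 47.7, 40.9, 30.9 and 34.5 CPM in responder replicates 1, 2, 3 and 5 and at 92.8 and 87.1 in replicates 4 and 6. Non-responders had 96.6, 179.8, 117.3 and 155.7 CPM. Every non-responder thus lay above every responder, but responder replicates 4 and 6 came close to non-responder replicate 1. The means were 55.6 ± 27.2 (SD, n = 6) and 137.4 ± 37.5 CPM (SD, n = 4), a log2 difference of -1.31 ± 0.33 (SE). The untreated library had 35.5 CPM, close to the lower 4 responders. Afp, a fetal liver protein made by many liver tumours, split the responders the same way: 121.4 and 99.8 CPM in replicates 4 and 6 and 1.38 to 2.29 in the other 4, against 114.6 to 382.2 in non-responders and 1.71 in the untreated library. Its part in the Cdh1 difference was not tested. The log2 difference lay between -1.52 and -1.14 over the 10 fits that left out 1 library, and was -0.64 when the title number entered the model.

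Cdh2 (ENSMUSG00000024304, chromosome 18, 16588877 to 16809246) ran from 106.0 to 133.3 CPM in responders, with a median of 119.2. Non-responders had 83.2, 115.4, 157.4 and 163.8 CPM, on both sides of the responder range. The coefficient of variation was 9.06% in responders and 29.1% in non-responders, and the log2 difference was -0.11 ± 0.17 (SE). The untreated library, at 99.6 CPM, lay below every responder.

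Markers of bile duct cells, which carry E-cadherin and Cldn3, were low in all libraries. Krt19, a keratin of bile ducts, stood at 0.143 to 1.14 CPM in responders and 0.163 to 1.44 in non-responders, and Epcam stood at 0.214 to 0.810 and 0.400 to 1.14. Summed over the 8 markers the level was 30.6 to 43.2 CPM in responders and 37.7 to 81.2 in non-responders, and edgeR called 0 of the 6 markers tested. At an unadjusted p under 0.05 there were 2, Krt7 and Spp1, while DESeq2 called 1 and limma-voom 0. The part of bile duct cells in the Cdh1 difference was not tested. Endothelial markers summed to 220.2 to 361.8 CPM in responders and 125.6 to 316.5 in non-responders, and edgeR called 1 of 7, Lyve1, lower. Markers of T and NK cells summed to 3.63 to 6.88 and 2.76 to 10.4 CPM, and mesothelial markers to 0.107 to 0.979 and 0.254 to 6.34.

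The claudins overlapped between the groups. Cldn1 (ENSMUSG00000022512, chromosome 16, 26356642 to 26371841) ran from 72.7 to 97.9 CPM in responders, with a median of 78.3. Its non-responder values of 40.7, 133.6, 72.4 and 105.7 CPM spanned that whole range, and the log2 difference was -0.10 ± 0.25 (SE). The coefficient of variation was 11.8% in responders and 45.8% in non-responders, or 29.5% without non-responder replicate 1. Cldn2 (ENSMUSG00000047230, chromosome X, 139800828 to 139811386) ran from 98.6 to 140.7 CPM in responders, where replicates 4 and 6 were highest. Non-responders had 80.6, 167.8, 132.6 and 143.4 CPM, and the log2 difference was -0.17 ± 0.19 (SE). Cldn3 (ENSMUSG00000070473, chromosome 5, 134986214 to 134987472) has a single exon and was even among responders, at 59.6 to 75.4 CPM with a median of 67.9. In non-responders it stood at 65.0, 56.4 and 59.0 CPM in replicates 2, 3 and 4 and at 134.4 in replicate 1, the library whose reads lay toward 3′ ends. Its log2 difference was -0.23 ± 0.23 (SE), and 0.17 without that library. Leaving it out also took the coefficient of variation in non-responders from 47.5% to 7.33% for Cldn3 and from 28.03% to 12.2% for Cldn2, against 8.10% and 15.3% in responders. The untreated library had 71.7 CPM of Cldn1, 105.4 of Cldn2 and 65.7 of Cldn3, of which the first lay below every responder. Cldn3 shares 40 exon bases with Wbscr25 on the other strand, so reads of these bases could belong to either gene.

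**Figure D3:**
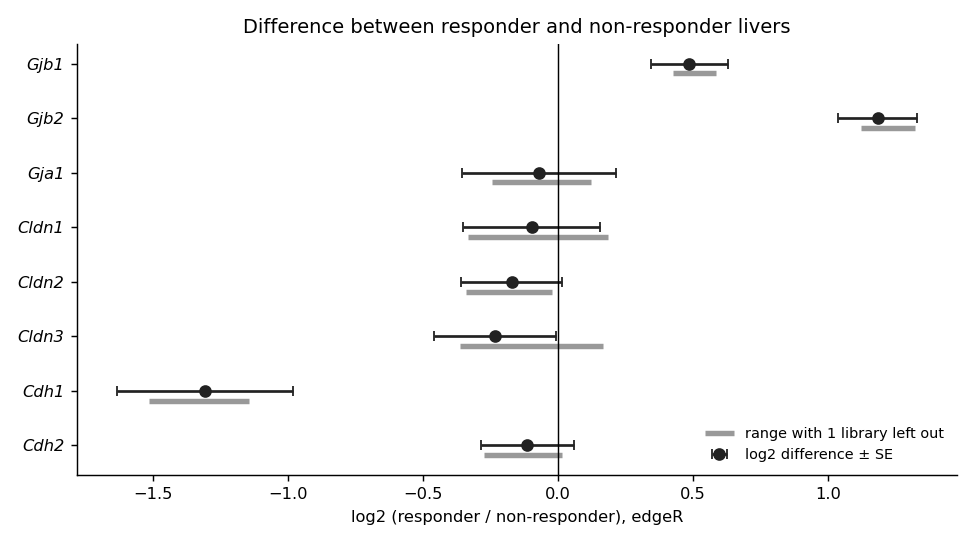
Log2 difference of responders over non-responders for each member (points) with its SE (bars) from edgeR; grey bars span the values from 10 fits that each left out 1 library. Gjb2 lies highest at 1.18, Cdh1 lowest at -1.31, and the grey bars of Gja1, Cldn1, Cldn3 and Cdh2 cross 0.

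Per length of the gene model, the hepatocyte connexins Gjb1 and Gjb2 were the most abundant members in responders. In responders the order by CPM per kilobase of exon was Gjb1 at 345.7 ± 33.0 (SD, n = 6), Gjb2 at 132.1 ± 14.2, Cldn3 at 53.6 ± 4.34, Cldn2 at 35.1 ± 5.37, Cldn1 at 25.4 ± 3.01, Cdh2 at 14.9 ± 1.35, Cdh1 at 12.2 ± 5.95 and Gja1 at 1.38 ± 0.48. Libraries of neighbours in this order overlapped for Cldn2 with Cldn1 and for Cdh2 with Cdh1, and otherwise lay apart. In non-responders Gjb1 came first again at 245.7 ± 41.7 CPM per kilobase (SD, n = 4) and Gja1 last at 1.44 ± 0.47. Between them Gjb2 was at 57.9 ± 11.2, behind Cldn3 at 62.5 ± 29.7, and Cdh1 at 30.03 ± 8.19 stood ahead of Cldn1 at 27.1 ± 12.4 and Cdh2 at 16.1 ± 4.69. Neighbours from Cldn3 down to Cdh2 overlapped there, and Cldn3 exceeded Gjb2 in 2 of 4 libraries. Without non-responder replicate 1 that order turned, with Gjb2 at 60.2 ± 12.5 and Cldn3 at 47.7 ± 3.50 CPM per kilobase (SD, n = 3). Over all 11 libraries 0.789% of tested genes had a mean per-length level at or above that of Gjb1, 2.5% at or above that of Gjb2, and 64.4% at or above that of Gja1. The listed length of Cdh2 includes exon bases outside its best covered transcript, so its place in both orders depends on that length.

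Ratios between members of 1 library do not depend on how libraries are scaled. Per kilobase, Gjb1 was 2.17 to 3.21 times Gjb2 in responders and 4.01 to 4.59 times in non-responders, without overlap, and 2.63 times in the untreated library. The balance of the cadherins differed by library. Cdh1 was 0.635, 0.542, 0.447 and 0.574 times Cdh2 in responder replicates 1, 2, 3 and 5 and 1.45 and 1.32 times in replicates 4 and 6. It was 1.31 to 2.75 times Cdh2 in non-responders and 0.628 times in the untreated library. Per kilobase of listed length, Cdh1 thus exceeded Cdh2 in each non-responder and in 2 of 6 responders. Which of them was higher depended on the listed lengths, 4574 bases for Cdh1 and 8066 for Cdh2. Each length takes in 20 distinct exons from 3 transcripts, of which the best covered transcript has 16. Over that transcript alone the per-length level of Cdh2 would be higher, and Cdh1 could then exceed it in fewer libraries. Without division by length the log2 ratio was 0.21, 0.64, -0.42 and -0.07 in non-responder replicates 1, 2, 3 and 4. In responder replicates 4 and 6 it was -0.28 and -0.42, and it was lower in the other responders. The log2 ratio of Cldn2 to Cldn1 overlapped, at 0.46 ± 0.34 (SD, n = 6) and 0.62 ± 0.32 (SD, n = 4).

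**Figure D4:**
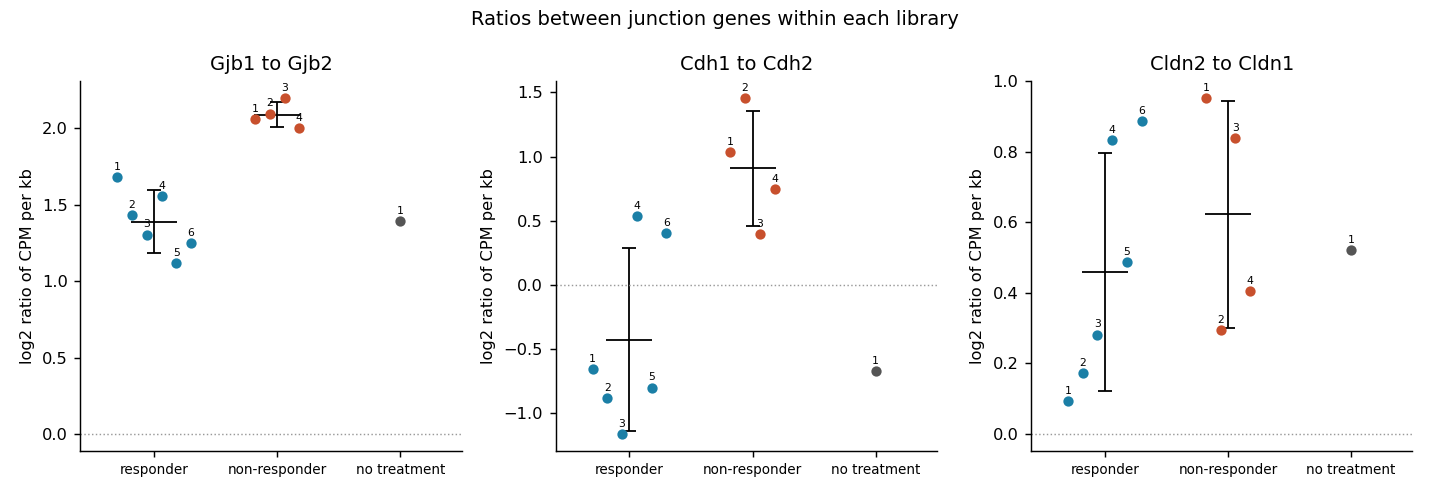
Log2 ratio of CPM per kilobase between pairs of members in each library (points numbered by replicate), with the mean and SD of each group; the dotted line marks equal levels. The Gjb1 to Gjb2 ratio separates the groups. Cdh1 to Cdh2 is above 0 in 4 of 4 non-responders and in responder replicates 4 and 6, which depends on the listed gene lengths.

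Other genes of the junctions were called in both directions. Of 137 genes in 7 lists (other connexins and pannexins, other claudins, other cadherins, partners at tight junctions, partners at adherens junctions, desmosome genes and transcription factors that act on these genes), 85 were tested. By edgeR's quasi-likelihood test with Benjamini-Hochberg adjustment 6 were higher in responders (4.11% of all tested genes were) and 8 lower (5.82%). Their median log2 difference was -0.07, and that of all tested genes was -0.02. DESeq2 called 22 of them and limma-voom 17. Without non-responder replicate 2 edgeR called 0, with 27 at an unadjusted p under 0.05.

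Among tight junction partners 3 of 27 were higher, 1 was lower and 23 were not called. Prkcz, a polarity kinase, ran from 16.5 to 29.4 CPM in responders and from 11.4 to 14.8 in non-responders, a log2 difference of 0.85 ± 0.17 (SE, edgeR adjusted p = 0.0187). The scaffold gene Magi1 had 0.41 ± 0.08 (SE, edgeR adjusted p = 0.0187), and Pard3, a polarity scaffold named after its value was seen, 0.44 ± 0.13 (SE, edgeR adjusted p = 0.0479). Marveld2, which encodes tricellulin of the corners where 3 cells meet, was lower at -0.62 ± 0.14 (SE, edgeR adjusted p = 0.0233).

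Among adherens junction partners 2 of 12 were higher, 2 lower and 8 not called. Nectin3 (Pvrl3 in the file), an adhesion receptor, ran from 36.1 to 58.8 CPM in responders and from 24.2 to 33.5 in non-responders, a log2 difference of 0.71 ± 0.15 (SE, edgeR adjusted p = 0.0225). Vcl, which encodes vinculin and was named after its value was seen, had 0.43 ± 0.12 (SE, edgeR adjusted p = 0.0490). Plekha7, whose protein links cadherin complexes to microtubules, was lower at -0.94 ± 0.22 (SE, edgeR adjusted p = 0.0272). Ctnnb1, which encodes β-catenin, was lower at -0.60 ± 0.17 (SE, edgeR adjusted p = 0.0476), averaging 332.0 ± 38.1 CPM (SD, n = 6) against 502.4 ± 133.8 (SD, n = 4) in the livers of non-responders. The tumours were induced by expressing β-catenin, and reads of an introduced copy and of the mouse gene cannot be told apart in these gene counts.

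Desmosome genes, 2 of 9 lower and 7 not called, included Ppl and Evpl, whose proteins tie junctions to keratin filaments. Ppl, which encodes periplakin, averaged 64.0 ± 25.8 CPM (SD, n = 4) among non-responders but 10.4 ± 9.17 (SD, n = 6) among responders, a log2 difference of -2.63 ± 0.63 (SE, edgeR adjusted p = 0.0314). Evpl, for envoplakin, had -2.39 ± 0.47 (SE, edgeR adjusted p = 0.0187) at a mean of 0.227 CPM in responders. Of 6 other connexins and pannexins 1 was lower, the channel gene Panx1 at -2.15 ± 0.46 (SE, edgeR adjusted p = 0.0218), and 5 were not called. Of 7 other claudins 1 was lower, Cldn14 at -0.66 ± 0.16 (SE, edgeR adjusted p = 0.0312), and 6 were not called.

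Among 7 other cadherins edgeR called 0, with Cdh15 and Cdh17 being the 2 that reached an unadjusted p under 0.05. DESeq2 and limma-voom called 1, Cdh17. Cdh17, the liver-intestine cadherin, ran from 42.7 to 192.6 CPM in non-responders and from 0.163 to 14.6 in responders, a log2 difference of -4.41 ± 1.27 (SE, edgeR adjusted p = 0.0537; 0.0102 by DESeq2 and 0.0119 by limma-voom). Of 17 regulators 1 was higher, 1 lower and 15 not called. Cebpa, a hepatocyte factor, had 0.95 ± 0.27 (SE, edgeR adjusted p = 0.0470) and Klf4, an epithelial factor, -1.23 ± 0.35 (SE, edgeR adjusted p = 0.0483). The Cdh1 repressors Snai1, Snai2, Snai3, Zeb1 and Zeb2 did not pass the edgeR threshold. Zeb2 ran from 16.4 to 28.5 CPM in responders and from 10.6 to 19.2 in non-responders, a log2 difference of 0.45 ± 0.19 (SE, edgeR adjusted p = 0.143). Snai1 ran from 0.535 to 0.979 CPM in responders and from 0.300 to 1.93 in non-responders, and Zeb1 from 19.6 to 26.7 and from 15.99 to 22.2.

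The calls of these junction genes changed with the libraries in the fit. Prkcz, Magi1, Marveld2, Nectin3, Plekha7, Ctnnb1, Ppl, Evpl, Panx1, Cldn14, Cebpa and Klf4 each missed the threshold without non-responder replicate 2, where their edgeR adjusted p lay between 0.0640 and 0.173. Most were also lost without other libraries, responder replicates 2 and 5 most often. Leaving out each of the 10 libraries in turn, Prkcz passed 9 times, Magi1 and Evpl 8, Panx1 7, Marveld2 and Nectin3 6, Plekha7 5, Cldn14 and Ppl 4, Klf4 3, and Ctnnb1 and Cebpa 2. With the title number in the model none of these 12 passed, at an edgeR adjusted p of 0.432 or more. Without the filter on low counts Ctnnb1, Ppl and Klf4 missed it as well (edgeR adjusted p = 0.0734, 0.0757 and 0.0548), and limma-voom gave Ctnnb1 an adjusted p of 0.0540. With the untreated library in the model Ctnnb1 (edgeR adjusted p = 0.052) and Klf4 (0.0502) missed it too. Genes that mark the zones of the liver lobule also differed by edgeR: 7 of 10 periportal genes were higher (4.11% of all tested genes were) and 3 of 13 perivenous genes lower (5.82%). Without non-responder replicate 2 edgeR called neither list (0, with 8 and 8 at an unadjusted p under 0.05). The log2 differences were 1.57 for Gls2, 1.55 for Ass1 and 1.81 for Hal, and -1.15 for Gulo, -1.17 for Lgr5 and -1.50 for Rhbg. The part of zonation in the levels of Gjb2, Cdh1 and Cldn2 was not tested.

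**Figure D5:**
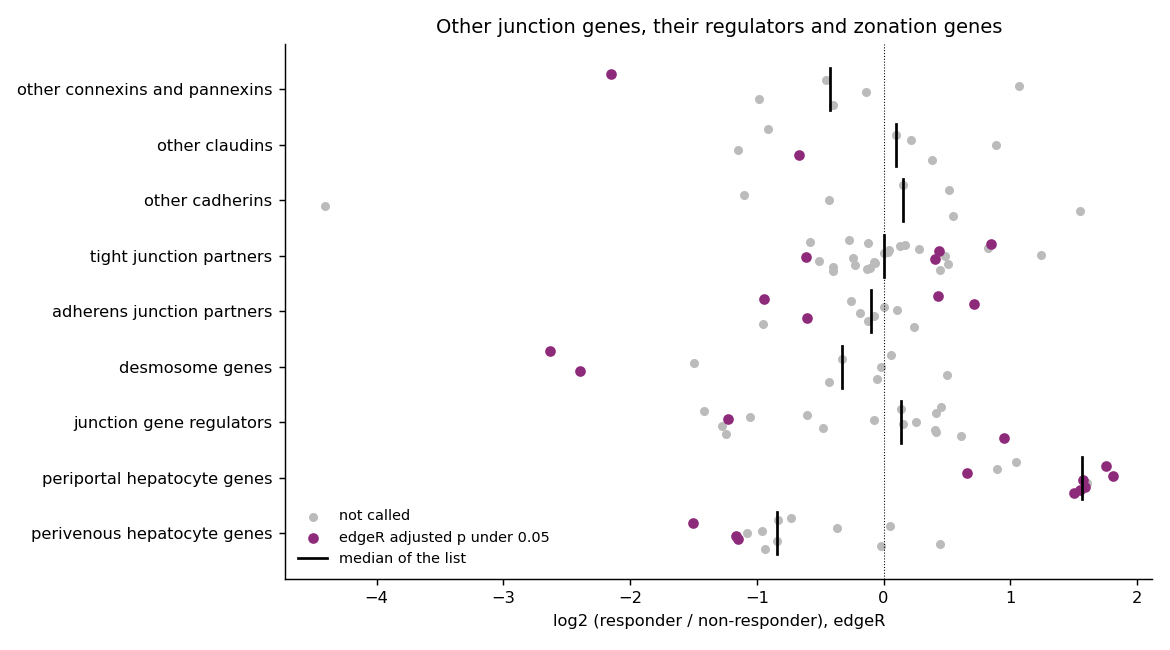
Log2 difference of responders over non-responders for each tested gene of the 7 junction lists and of 2 zonation lists (rows); purple points are genes with an edgeR adjusted p under 0.05, grey points were not called, and black ticks mark the median of a list. Periportal genes lie mostly above 0 (median 1.56), and the 7 junction lists centre between -0.43 and 0.15.

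Genes whose levels ran most like a member were found by Pearson's r of log2 CPM over the 11 libraries among 11423 genes, as a description without a p-value. Cdh1 ran closest to Tgfa, a growth factor gene (r = 0.99), Atp10a (0.98) and Cdh17 (0.98). After the mean of each response label was taken out, r over the 10 treated libraries was 0.96, 0.93 and 0.93. Gjb2 ran closest to Plekhb1, Eif4h and Ech1 (0.98 each, and 0.90, 0.81 and 0.77 within labels). Gjb1 ran closest to Pithd1, Mn1 and C1rl (0.98 each, and 0.93, 0.93 and 0.92 within labels). The nearest genes were Caprin1 for Cldn1 (0.98), Spty2d1 for Cldn2 (0.97), Ubl7 for Cldn3 (0.98), Rnf14 for Cdh2 (0.93) and Ms4a6c, a gene of macrophages, for Gja1 (0.89). All genes of a library share its depth and its coverage, so these likenesses are not independent of either. Cldn3 stood at 134.4 CPM in non-responder replicate 1 and at 56.4 to 75.4 in every other library, so its r leans on that library.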

How the data were processed

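RNA was isolated with TRIzol, per the labels' protocols, which name TruSeq libraries and also a small RNA kit for indexing. FastQC and the mm10 build are named in the submitters' processing notes; no aligner, counter, annotation release or strand rule was given in the sources used here. Per gene and per exon, the authors deposited a raw count with an RPKM value beside it, per the file headers; RPKM was not used. The listed gene length equals the union of a member's exons, untranslated parts included, despite its header.

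Groups follow the response label; replicates are numbered by accession and are unpaired. Responders and non-responders (6 and 4) were compared by edgeR 4.0.16 under R 4.3.3 (TMM scaling after filterByExpr, robust quasi-likelihood F test, Benjamini-Hochberg over all genes tested, threshold 0.05); the SE is the log2 difference divided by the root of F. CPM is TMM-scaled over 11 libraries. The step was tested on simulated data. Members and lists were chosen with earlier results of these data known. Named genes were the members, the 3 genes of each list with the smallest p past the threshold (otherwise the 1 with the smallest p), and the 3 genes most like each member whose average log2 CPM reached 1 (log2 CPM computed from the deposited counts with a prior count of 2). Alternatives were RLE, upper quartile and library size scaling, no filter, DESeq2 1.42.0, limma-voom (limma 3.58.1), a term for the title number, a fit that includes the untreated library, and leaving out each library. Marker lists of 7 cell types were read as summed CPM, with 7 of 8 hepatocyte markers matched. Promoter windows came from RefSeq on GRCm38.p6.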

Additional observations from a re-analysis of the deposited data

Results flagged for a closer look

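Dixon's test at the 95% level was run on 24 groups of values of the members (log2 CPM, the index of later over earlier exons, and the Gjb1 first-exon share), and it set 4 apart; chance sets about 1 in 20 apart. All 4 concern non-responder replicate 1. Cldn3 stood at a log2 CPM of 7.07 there, above the other 3 non-responders. The log2 density of later over earlier exons was 2.10 for Cdh1 (2.095 before rounding) and 2.31 for Cdh2. The share of Gjb1 first-exon counts on the 107-base exon was 32.07%. The cause was not tested.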

How the results depend on the processing

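With the title number in the edgeR model 0 genes were higher and 1 lower (1857 at an unadjusted p under 0.05), and of the junction list genes 0 were higher and 0 lower (12 at an unadjusted p under 0.05); the titles nearly separate the groups, and the cause was not tested. DESeq2 called 1396 higher and 1661 lower, and 14 junction list genes lower; without a filter on low counts 5 junction list genes were lower. Over the fits that left out 1 library, 38 to 836 genes were higher, 41 to 1158 lower, 0 to 7 junction list genes higher and 0 to 13 lower. Each of these 4 counts dropped by over 1.5 times without non-responder replicate 2, which gave the lowest of each, and without responder replicate 1, 2, 3 or 5; without non-responder replicate 3 the count of junction list genes that were lower rose to 13. No paired analysis was possible because the labels give no pairing of libraries. The log2 differences of Gjb1 and Gjb2 stayed above 0 and that of Cdh1 below 0 in all 18 alternatives, at 0.42 to 0.59, 1.12 to 1.37 and -1.52 to -0.64. Those of Gja1, Cldn1, Cldn2, Cldn3 and Cdh2 changed sign in 4, 3, 1, 1 and 1 of 18; Cldn2 was at 0.19 with the title number in the model and Cldn3 at 0.17 without non-responder replicate 1. The median log2 difference over all genes lay between -0.04 and 0.00 in these fits. At 61 to 281 counts per library the depth of Gja1 limits what could be seen. With a prior count of 0.5 the nearest gene of each member was the same. Among the 3 genes nearest Cdh1, however, Cdh17 gave way to Atp6v0e2.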

Other observations

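Cldn2 had no reads on the first exon of its best covered transcript in any library (chromosome X, 139800828 to 139801010, 0 counts), and its other annotated first exons held 0 and 1 counts over 11 libraries. Its last exon, of 2861 bases (139808526 to 139811386), held 46608. The listed length of 3325 bases includes those uncovered exons, so the per-length level of Cldn2 would be higher over the covered exon alone.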
